A study of Mus musculus with 9 samples.

Results

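Chemokines are small secreted proteins that guide the movement of leukocytes, and they are sorted into CC, CXC, CX3C and XC families by the spacing of their first cysteines. They act through receptors coupled to Gi proteins, while atypical receptors bind chemokines without Gi signalling and clear or store them. In the retina, neurons make the membrane-anchored fractalkine Cx3cl1, microglia carry its receptor Cx3cr1, and inflammatory chemokines are made by microglia, Müller glia and pigment epithelium during photoreceptor damage.

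The genes described here are the protein-coding rows of a mouse retinal count table whose symbols begin with Ccl, Cxcl, Cx3cl, Xcl, Ccr, Cxcr, Cx3cr or Ackr followed by a digit. There were 60 of them among 55414 genes, made up of 38 ligands, 18 receptors and 4 atypical receptors. Total RNA of Balb/c mouse retina, an albino strain, was sequenced in 9 libraries, 3 of control, 3 of the light damage model and 3 of that model with A74. Age, sex, light dose, time after light, and the nature and dose of A74 are not in the labels, and no library pairs A74 with retina that was spared the light. The series title names P2RX7, a channel opened by extracellular ATP, and its inhibition, so the comparisons ask how these genes stood after light and how they stood after light with A74. The labels do not say whether the libraries of a group are different animals, and p-values here reflect only the spread between these samples, which may be technical.

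Of the 60 genes, 20 passed the count filter and were tested, namely 11 ligands, 6 receptors and 3 atypical receptors. Another 10 were under the filter but had at least 10 counts in a library, and the other 30 had at most 8 counts in any library, 14 of them none at all. A count of 0 allows up to 3 counts in a library, which is 0.156 to 0.212 CPM, the unit of level used throughout, which divides counts by a TMM-scaled library size. Such limits, like the count intervals below, cover counting error only.

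Library totals ran from 14787972 to 18740434 counts, and all 9 carry the same batch label. The libraries were not alike within groups. Y-linked counts were 4249 to 5832 in control 1 and 2 and light damage 1 and 2, against 0 in the other 5. Xist had 17227 to 22253 counts in control 3 and every A74 library and at most 7 elsewhere, which leaves light damage 3 with neither. No A74 library thus shares its sex-linked transcripts with a light damage library. A list of 8 anterior eye genes summed to between 138 and 275 CPM for control 1 and 2, light damage 1 and 2 and A74 1, but to between 12.5 and 15.9 CPM for the remaining 4, and the first 5 and last 4 libraries are called the high and low tissue sets below. Markers of rods, the photoreceptors that fill most of the mouse retina, summed to between 58500 and 63800 CPM in control, 34000 and 49700 after light damage and 56800 and 59700 with A74.

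Promoter letters are shown for the ligands Cxcl10, Ccl12 and Cxcl14, 3 of the 4 ligands with the smallest adjusted p in light damage against control, so that 2 large rises can be set beside the small one of Cxcl14. The table held no entry for Cxcl16. RefSeq promoters on GRCm38.p6, another build than that of the counts, matched 46 of the 60 genes. Each run is the 250 bases before the annotated start, 5′ to 3′ in the gene's direction. Capitals mark matches, on either strand, to the ISRE core (GAAA, any 2 bases, GAAA, bound by interferon-activated factors), the NF-kB consensus, the AP-1 site TGANTCA or the PU.1 site GAGGAAGT.
Cxcl10, chr5:92348890-92349139, minus strand: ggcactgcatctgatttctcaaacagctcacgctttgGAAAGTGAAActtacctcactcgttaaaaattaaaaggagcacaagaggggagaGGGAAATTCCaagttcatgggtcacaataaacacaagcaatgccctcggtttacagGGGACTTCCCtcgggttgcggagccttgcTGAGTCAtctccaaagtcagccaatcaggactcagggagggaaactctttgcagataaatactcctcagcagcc
Ccl12, chr11:82101595-82101844, plus strand: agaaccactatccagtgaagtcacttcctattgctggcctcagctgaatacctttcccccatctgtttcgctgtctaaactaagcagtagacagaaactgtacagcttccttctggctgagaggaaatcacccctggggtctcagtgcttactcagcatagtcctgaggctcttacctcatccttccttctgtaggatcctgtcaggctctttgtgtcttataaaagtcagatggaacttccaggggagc
Cxcl14, chr13:56296552-56296801, minus strand: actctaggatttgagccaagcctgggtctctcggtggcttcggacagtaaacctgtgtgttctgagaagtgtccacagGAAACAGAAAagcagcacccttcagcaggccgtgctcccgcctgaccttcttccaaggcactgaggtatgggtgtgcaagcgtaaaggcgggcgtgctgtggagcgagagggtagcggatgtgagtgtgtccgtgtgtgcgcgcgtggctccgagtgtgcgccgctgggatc

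The Cxcl10 window held an ISRE core starting 213 bases before the start, NF-kB matches at 159 and 103 bases and an AP-1 match at 74 bases, none of which overlap. The Cxcl14 window held 1 ISRE core at 172 bases, and the Ccl12 window held none of the 4 motifs. Over all 32851 promoters of that length, 2.98% held the ISRE core, 3.9% the NF-kB consensus, 6.75% the AP-1 site and 2.44% the PU.1 site. Among the 46 matched genes, 3 held the ISRE core, 9 the NF-kB consensus, 6 the AP-1 site and 1 the PU.1 site. These genes had 53 promoters, and a gene was counted if any of its windows held the motif. The counts per gene are thus not in the same unit as the percentages per promoter. The NF-kB group included Cxcl10, Cxcl1 and Ccl9, and also Cxcl2, Cxcl3 and Ccl20, which had 0 counts in all 9 libraries. A match is a description of letters and not a site shown to be bound.

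After light damage, 9 of the 60 genes rose and 1 fell by edgeR's quasi-likelihood test, all among the 20 tested, while 13% and 12.8% of all 17272 genes tested were called higher and lower. The filter admitted Cxcl10, Ccl12 and Ccr1 through the light damage libraries alone, where they are high, so a share of the 20 tested genes is not a like comparison with these percentages. The risers included the ligands Cxcl10, Ccl12, Cxcl16, Ccl9 and Cxcl14 and the receptors Cx3cr1, Ccr1 and Cxcr4. The gene that fell was the receptor Ccr9. Without light damage replicate 3 the count of risers was 14, with Ccl2, Ccl3, Ccl6, Cxcl1 and Ackr2 added, which the filter of that fit admits through light damage replicates 1 and 2 alone, and 15.8% of all genes were then called higher. DESeq2 did not call Ccl9 (adjusted p = 0.115), Ccr1 (0.0987) or Cxcr4 (0.0821), and edgeR on the 2 groups alone did not call Ccl9 (0.0547). Against light damage alone, 8 of the 60 genes were lower with A74 and none was higher, while 9.19% and 9.07% of all genes were called lower and higher. All 8 are among the risers, which had been called high in the same light damage libraries, so that overlap is no separate result. Cxcl14 was the riser not called. Without light damage replicate 2, 5 were called lower, and 5.37% of all genes were. DESeq2 called 6 lower, with 8.05% of all genes, and gave no adjusted p for Ccl12 and Ccr1. In A74 against control no gene of the 60 was called. The comparisons share libraries, so the rise after light and the lower level with A74 rest on the same 3 light damage libraries. The panels of CPM by library show 9 of the called genes.

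**Figure D1:**
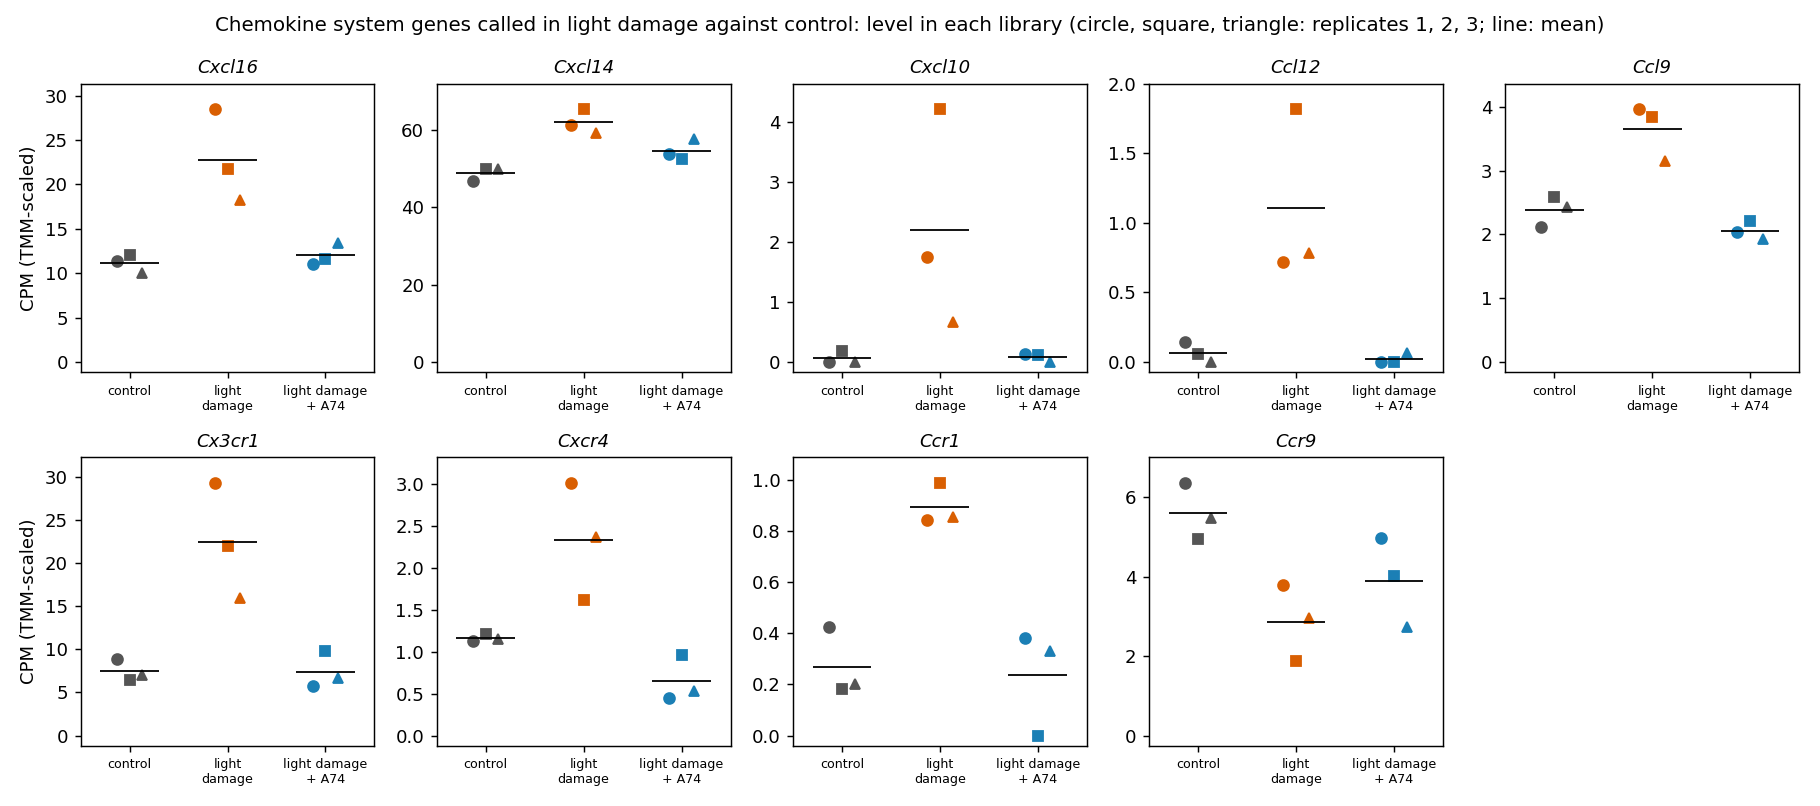
Level in CPM (vertical axis, linear) of 9 genes called in light damage against control, in each of the 9 libraries (points, shaped by replicate number), with the group mean as a line. In 8 panels every light damage library lies above every control library, and in the Ccr9 panel every one lies below.

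Among ligands, Cxcl10, an interferon-induced attractant of T cells and NK cells, had the largest ratio of light damage over control among the tested ligands. It was tested only because its light damage libraries passed the filter. Its raw counts were 0, 3 and 0 in control replicates 1 to 3, 29, 81 and 10 after light damage, and 2, 2 and 0 with A74. Every light damage library was above every other library, with replicate 2 the highest and replicate 3 the lowest. Pooled over a group, light damage was 35.7 times control (95% exact counting interval 11.9 to 175, which leaves out the spread between libraries), and was called (edgeR adjusted p = 0.00558). Light damage was 27.9 times A74 by the same measure (95% exact counting interval 10.6 to 104, edgeR adjusted p = 0.00892). With Y-linked transcripts as a term, the A74 call was lost (log2 fold change -2.81, edgeR adjusted p = 0.14). The classical receptor of Cxcl10, Cxcr3, had 0 counts in all 9 libraries.

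Ccl12, a mouse ligand of Ccr2 and close relative of Ccl2, had 2, 1 and 0 counts in control, 12, 35 and 12 after light damage and 0, 0 and 1 with A74. The light damage libraries did not overlap with either other group, and it was through them alone that Ccl12 passed the filter. The pooled ratio was 17.5 for light damage over control (95% exact counting interval 5.72 to 87.5, edgeR adjusted p = 0.00108). For light damage over A74 it was 54.8 (95% exact counting interval 9.46 to 2200, edgeR adjusted p = 0.000859), with 1 count in the A74 group. Both calls held in every fit that left out 1 library.

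Cxcl16, a membrane-anchored ligand that is also a scavenger receptor, had 11.4, 12.1 and 9.98 CPM in control, 28.5, 21.7 and 18.2 after light damage, and 11, 11.6 and 13.4 with A74. All light damage libraries lay above all others. Cxcl16 rose 1.03 log2 units after light (SE 0.15, adjusted p = 0.000189 in edgeR) and differed by -0.93 with A74 (SE 0.15, adjusted p = 0.000765 in edgeR). A74 against control gave 0.10 (SE 0.15, edgeR adjusted p = 0.79). Its receptor Cxcr6 had at most 8 counts in a library, and 18.3% of the exon bases of Cxcl16 overlap Zmynd15 on the opposite strand in GENCODE M21, a gene with a median of 31 counts.

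Ccl9, a macrophage-made CC ligand of Ccr1, had 2.12, 2.59 and 2.43 CPM in control, 3.97, 3.85 and 3.15 after light damage, and 2.04, 2.21 and 1.93 with A74. All light damage libraries lay above those of both other groups, which overlapped with each other. The rise was 0.62 (log2, SE 0.21, edgeR adjusted p = 0.0425) and the change with A74 was -0.83 (SE 0.22, edgeR adjusted p = 0.0143). The rise was near the threshold. It was lost on leaving out any 1 control library (edgeR adjusted p = 0.141, 0.0679 and 0.0857 without replicates 1, 2 and 3), light damage replicate 1 (0.126) or 2 (0.124), or A74 replicate 2 (0.0554). The A74 call was lost without light damage replicate 1 (edgeR adjusted p = 0.06) or 2 (0.0592), without A74 replicate 3 (0.0586), and with Y-linked transcripts as a term (0.14).

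Cxcl14, a constitutively made CXC chemokine, was among the most abundant of the group, at 46.8, 49.9 and 50 CPM in control, 61.4, 65.5 and 59.2 after light damage and 53.8, 52.5 and 57.8 with A74. The 3 groups did not overlap, and the A74 libraries lay between the others. Cxcl14 rose 0.34 log2 units after light (SE 0.07, adjusted p = 0.00146 in edgeR), the smallest called rise of the 9. A74 against light damage gave -0.18 (SE 0.07, edgeR adjusted p = 0.066), which was not called, and turned into a call without light damage replicate 3 (edgeR adjusted p = 0.0345). A74 against control gave 0.16 (SE 0.07, edgeR adjusted p = 0.254).

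Cx3cl1, fractalkine, had the most counts of the group in every library, and its level did not differ detectably between groups. It had 92.4, 86.6 and 88 CPM in control, 94.6, 91.7 and 83.4 after light damage and 87.2, 86.8 and 87.4 with A74. All 3 groups overlapped. The log2 fold change was 0.02 for light damage against control (SE 0.06, edgeR adjusted p = 0.886) and -0.05 for A74 against light damage (SE 0.06, edgeR adjusted p = 0.636).

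Cxcl12, the homeostatic ligand of Cxcr4, had 42.5, 39.1 and 23 CPM in control, 28.5, 23.9 and 18.1 after light damage and 26.3, 27.2 and 25.4 with A74. Control replicate 3 was the lowest control and light damage replicate 3 the lowest of its group, and both belong to the low tissue set. The groups overlapped. The log2 fold change of -0.57 was not called (SE 0.25, edgeR adjusted p = 0.149). A fall was called with the replicate number as a block (log2 fold change -0.56, SE 0.13, edgeR adjusted p = 0.0118), with tissue set as a term (-0.56, edgeR adjusted p = 0.0153), with Y-linked transcripts as a term (-0.55, edgeR adjusted p = 0.000333) and without control replicate 3 (-0.79, edgeR adjusted p = 0.00274). A74 against light damage gave 0.16 (SE 0.25, edgeR adjusted p = 0.714), but 0.64 with Y-linked transcripts as a term, where it was called (edgeR adjusted p = 0.00433).

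The other 4 tested ligands were not called in any of the 3 comparisons. Ccl25, the ligand of Ccr9, had 12.7, 14.7 and 14.1 CPM in control, 12.3, 13.4 and 12.9 after light damage and 15.1, 15 and 17.3 with A74, where all A74 libraries lay above the rest (log2 fold change 0.30 against light damage, SE 0.11, edgeR adjusted p = 0.0657). Cxcl13, a B cell attractant, had 0.446 to 1.27 CPM over the 9 libraries, with overlap of all groups. Ccl27a, which attracts skin-homing T cells, ranged from 0.777 to 1.93 CPM, and the epithelial Ccl28 from 1.46 to 3.25 CPM. Ccl27a has a near-identical copy in Ccl27b, so the split of reads between them is uncertain. Ccl25 shares 2.74% of its exon bases in GENCODE M21 with Elavl1 on the opposite strand, a gene with a median of 1652 counts.

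On the receptor side, Cx3cr1, which marks microglia, had 8.83, 6.45 and 7.08 CPM in control, 29.3, 22 and 16 after light damage and 5.8, 9.75 and 6.71 with A74. The lowest light damage library exceeded the highest of the other 6. It rose by 1.59 (log2, SE 0.26, edgeR adjusted p = 0.00215), was lower with A74 (-1.59, SE 0.25, edgeR adjusted p = 0.00367), and gave 0.00 in A74 against control (SE 0.27, edgeR adjusted p = 0.999). In bulk retina, more cells of a type and more RNA per cell cannot be told apart.

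Ccr1, a receptor of Ccl3, Ccl5 and Ccl9, had 6, 3 and 3 counts in control, 14, 19 and 13 after light damage and 6, 0 and 5 with A74. Light damage again did not overlap with the others, and Ccr1 passed the filter through those libraries alone. Its log2 fold change was 1.73 after light (SE 0.58, edgeR adjusted p = 0.037) and -1.91 with A74 (SE 0.59, edgeR adjusted p = 0.033). Both calls were near the threshold. The rise was lost without any 1 control library (edgeR adjusted p = 0.0513, 0.14 and 0.118 without replicates 1, 2 and 3) or without light damage replicate 1 (0.069) or 2 (0.116). The A74 call was lost without light damage replicate 1 (edgeR adjusted p = 0.0731) or 2 (0.111), without A74 replicate 2 (0.119) or 3 (0.0662), with tissue set as a term (0.0548) and with Y-linked transcripts as a term (0.204).

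Cxcr4, the receptor of Cxcl12, had 1.13, 1.21 and 1.15 CPM in control, 3.01, 1.61 and 2.36 after light damage and 0.446, 0.957 and 0.531 with A74. The groups did not overlap, and the A74 libraries were the lowest. It rose by 0.99 (log2, SE 0.32, edgeR adjusted p = 0.0325), was lower with A74 than with light alone (-1.82, SE 0.35, edgeR adjusted p = 0.00235), and gave -0.83 in A74 against control (SE 0.38, edgeR adjusted p = 0.3). The rise was lost without any 1 control library (edgeR adjusted p = 0.0934, 0.0766 and 0.0815 without replicates 1, 2 and 3) and without light damage replicate 1 (0.158), while the A74 call held in all 17 other settings fixed for it, left-out libraries included.

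Ccr9, the receptor of Ccl25, moved the other way. It had 6.36, 4.95 and 5.46 CPM in control, 3.79, 1.87 and 2.95 after light damage and 4.97, 4.01 and 2.72 with A74. Light damage lay under control in all libraries, and A74 overlapped with both. The log2 fold change after light was -0.97 (SE 0.26, edgeR adjusted p = 0.0112), lost without control replicate 1 (edgeR adjusted p = 0.0587) or light damage replicate 2 (0.0672). A74 gave 0.45 against light damage (SE 0.26, edgeR adjusted p = 0.249) and -0.51 against control (SE 0.25, edgeR adjusted p = 0.334). In GENCODE M21, 18.8% of the exon bases of Ccr9 overlap a transcript on the opposite strand with a median of 4 counts. On the same strand, 2.62% overlap Gm17200, which has a median of 16 counts. Reads counted for Ccr9 may thus not all be its own.

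Ccr10, the receptor of Ccl27 and Ccl28, had 1.2 to 1.99 CPM over the 9 libraries and was not called (log2 fold change -0.07 after light, SE 0.29, edgeR adjusted p = 0.89). Of the atypical receptors, Ackr1, which binds chemokines on erythrocytes and venules, had 56.7, 58.5 and 58.3 CPM in control, 66.2, 59.8 and 53.5 after light damage and 55, 58.7 and 67.3 with A74. Those groups overlapped (log2 fold change 0.05 after light, SE 0.08, edgeR adjusted p = 0.711). Ackr1 shares 25.7% of its exon bases on the same strand with Cadm3, an adhesion gene with a median of 5830 counts, so its level is uncertain. Ackr3, a scavenger of Cxcl12, had 1.97 to 3.98 CPM, and Ackr4, a scavenger of homeostatic CC ligands, 2.86 to 5.67 CPM. Neither was called in any comparison. Ackr4 shares 8.9% of its exon bases on the opposite strand with Acad11, a gene with a median of 412 counts, so its level is uncertain too.

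**Figure D2:**
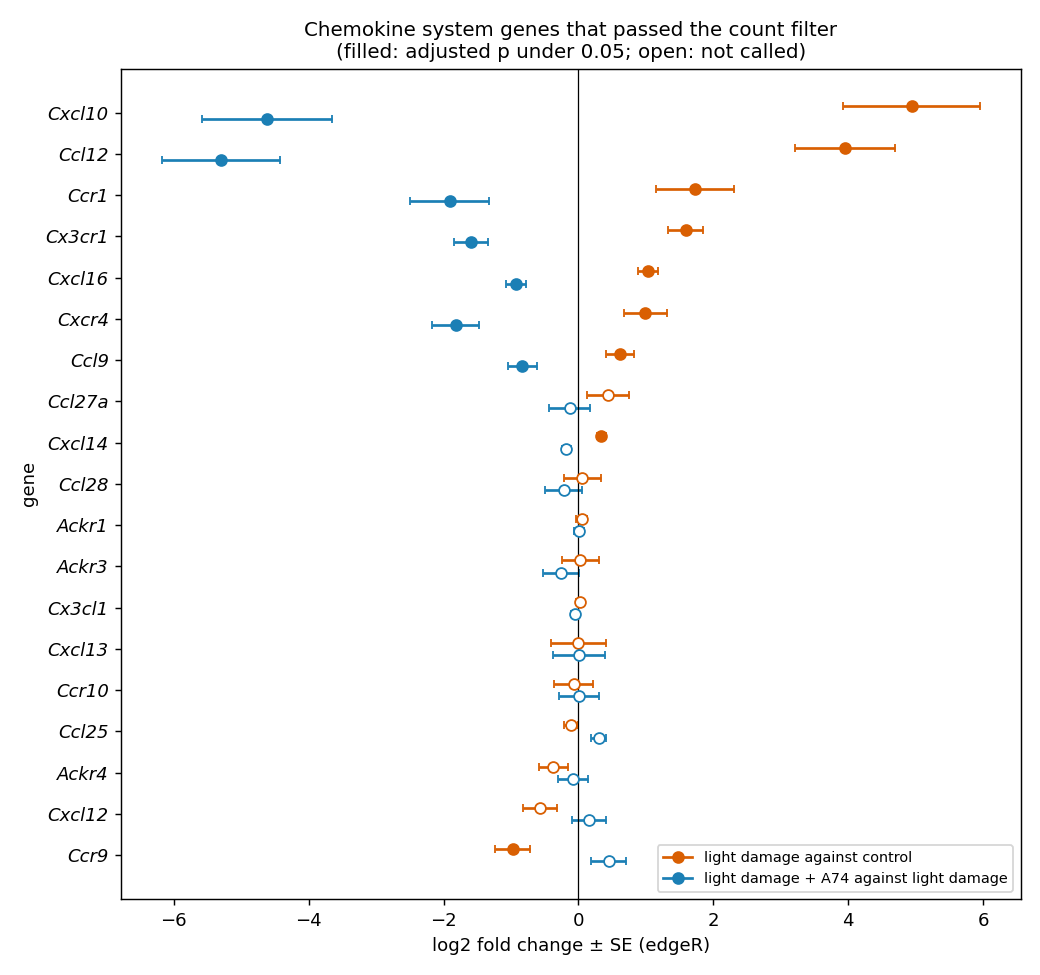
Log2 fold change with its SE (horizontal axis) for 19 tested genes (vertical axis), in light damage against control (orange) and A74 with light damage against light damage (blue), filled where edgeR's adjusted p was under 0.05. The 7 genes from Cxcl10 at 4.94 to Ccl9 at 0.62, are filled on both sides of 0, and the 2 comparisons share the light damage libraries.

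Per kilobase of merged exon (GENCODE M21), the control retina held most of Ackr1 at 41.1 ± 0.71 CPM per kb (SD, n = 3), a value that its overlap with Cadm3 makes uncertain. Cxcl14 followed at 26.7 ± 0.996, then Cx3cl1 at 22.6 ± 0.77. Cxcl12 (4.26 ± 1.27) and Cxcl16 (3.69 ± 0.352) were lower and within each other's spread, as were Ccl25 (1.86 ± 0.134) and Cx3cr1 (1.65 ± 0.274). The other 13 tested genes were under 1 CPM per kb, down to Cxcl10 at 0.0268 ± 0.0464. Cx3cl1, Cxcl14, Ackr1 and Cxcl12 together held 79.1 to 80.1% of the reads of all 60 genes in control, 69.3 to 73.3% after light damage and 79.3 to 80% with A74.

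Some ligands that the filter left out had every light damage count above all others. Among those with at least 10 counts in a library, these were Ccl2, Cxcl1, Ccl3, Ccl5 and Cxcl5. Ccl4, Ccl6, Ccl17 and Ccl27b, also of that kind, did not show this order. Of the 10 genes under the filter with at least 10 counts in a library, 7 had light damage libraries all above control in CPM, against 11.1% of the 1530 genes of that kind in the table, and 0 had them all under control, against 7.65%. In 6 of the 10 the A74 libraries were all under light damage, against 10.9%, and in 0 all above, against 5.62%. Between A74 and control the libraries separated in 0 of the 10, against 4.64% of the 1530 genes higher and 6.41% lower. Since these genes have that many counts mostly because light damage was high, the counts describe them and test nothing.

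Ccl2, the main attractant of Ccr2-bearing monocytes, had 0, 2 and 0 counts in control, 17, 34 and 8 after light damage and 1, 1 and 1 with A74. Pooled, light damage was 26.3 times control (95% exact counting interval 6.97 to 222) and 18.3 times A74 (95% exact counting interval 5.95 to 91.1). Its receptor Ccr2, named after its values were seen, had 7 counts in light damage replicate 2, 1 in A74 replicate 2 and 0 in the other 7 libraries. Ccl7, another Ccr2 ligand chosen the same way, had 7 counts in light damage replicate 2 alone.

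Ccl3, Ccl4 and Ccl5 are CC ligands made by activated macrophages and microglia. Ccl3 had 1, 2 and 0 counts in control, 12, 21 and 5 after light damage and 0 in all A74 libraries. Its pooled ratio was 11.3 for light damage over control (95% exact counting interval 3.58 to 57.2). With 3 counts over the A74 group taken as the floor, light damage was 11.8-fold higher than A74. That value leaves out the counting error of light damage, so it is not a lower limit. Ccl4 had 0 counts in control, 11, 10 and 1 after light damage and 0, 0 and 1 with A74. It was 6.54-fold higher after light damage than in control with the same floor for control, again not a lower limit. Light damage replicate 3, though, had no more counts than A74 replicate 3. Ccl5 had 1, 1 and 2 counts in control, 13, 11 and 4 after light damage and 1, 2 and 0 with A74, a pooled ratio of 6.24 for light damage over control (95% exact counting interval 2.18 to 24.5).

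Cxcl1 and Cxcl5 attract neutrophils through Cxcr2. Cxcl1 had 0 counts in control, 11, 18 and 5 after light damage and 0, 2 and 1 with A74. With the floor of 3 counts over the control group, it was 10.1-fold higher after light damage, again not a lower limit. Cxcl5 had 2, 0 and 0, then 6, 10 and 10, then 1, 0 and 0 counts, with a pooled ratio of 11.6 for light damage over control (95% exact counting interval 2.9 to 101). Cxcr2 had at most 1 count in a library, and its related ligands Cxcl2 and Cxcl3 had 0 in all 9.

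Ackr2, a decoy receptor that clears inflammatory CC chemokines, had 3, 2 and 5 counts in control, 12, 14 and 9 after light damage and 6, 8 and 4 with A74, with light damage above both others. Ccl6, a macrophage CC ligand, had 2, 6 and 3, then 12, 16 and 4, then 5, 4 and 8 counts, and its groups overlapped. Ccl17, a ligand of Ccr4, had 3 to 8, 9 to 12 and 7 to 17 counts in the same order, which overlap in CPM. Ccl27b, the copy of Ccl27a, had 4 to 12 counts over all libraries.

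When all genes with a count were tested without the filter, edgeR called 14 of the 60 higher after light damage, against 7.96% of 31678 genes, and 1 lower, Ccr9, against 6.91%. These were 8 of the 9 risers, without Ccl9 (edgeR adjusted p = 0.0833), and Ccl2 (2e-07), Cxcl1 (1.39e-05), Ccl3 (0.000795), Ccl4 (0.0012), Cxcl5 (0.00838) and Ccl5 (0.0217). Ackr2 missed the threshold (edgeR adjusted p = 0.0577). The same fit called 14 lower with A74 than with light damage, against 5.86% of all genes, namely the 8 called before and those 6 ligands, and 0 higher, against 5.47%. Between A74 and control it called 0, against 1.28% of genes higher and 0.991% lower.

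**Figure D3:**
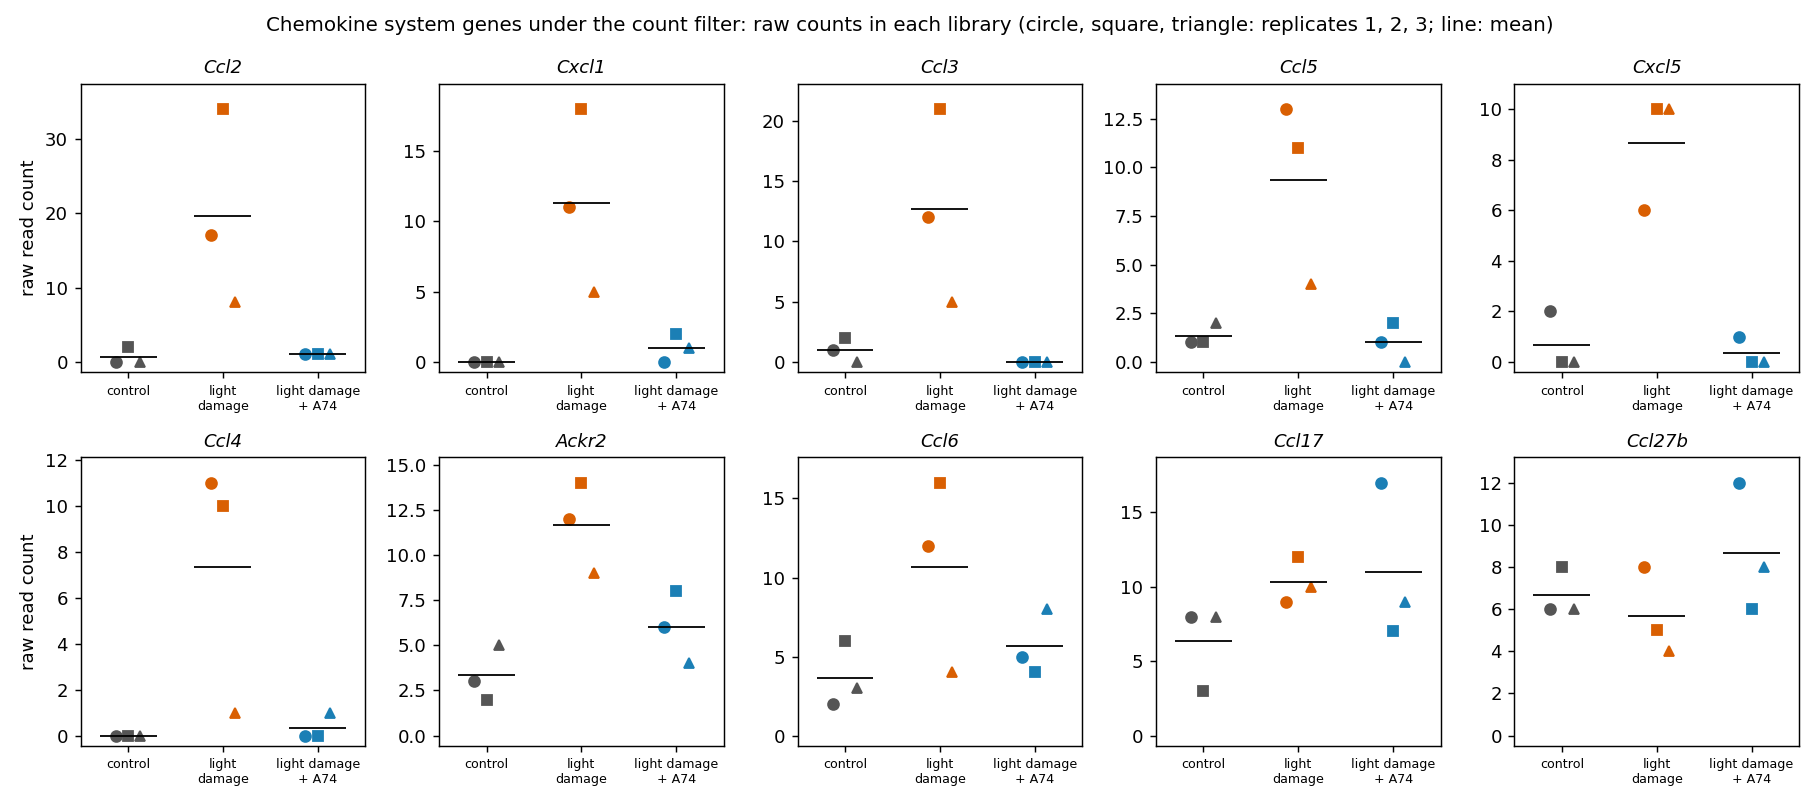
Raw read counts (vertical axis, linear, per gene) in each library (points, shaped by replicate number) of the 10 genes under the count filter with at least 10 counts in a library, with the group mean as a line. Ccl2, Cxcl1, Ccl3, Ccl5 and Cxcl5 have each light damage library above all 6 others, while Ccl17 and Ccl27b show no such order.

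No gene of the 60 was called between A74 and control by edgeR, where 0.591% of all genes were called higher and 0.301% lower. Cxcl14 (higher) and Cxcr4 (lower) had an unadjusted p under 0.05, and DESeq2 also called 0. Against light damage, edgeR called 0 genes higher with A74, Ccl25 alone had an unadjusted p under 0.05 in that direction, and DESeq2 called 0. The widest SE in A74 against control was 1.78 for Cxcl10 and 1.49 for Ccl12, and both genes had at most 4 counts in either group, so a difference was not detectable at this depth.

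Within the 5 libraries high in anterior tissue genes (2 control, 2 light damage, 1 A74), the log2 change after light was 1.09 for Cxcl16, 1.75 for Cx3cr1, 0.96 for Cxcr4 and -1.01 for Ccr9. Within the other 4 (1 control, 1 light damage, 2 A74), these 4 values were 0.87, 1.18, 1.04 and -0.88. A group with 1 library in a set has no spread of its own, and the fit assumes that it varies like the others, so these are given as values and no call is read from them. The difference between the sets was not tested. For A74 against light damage the high and low sets gave -2.14 and -0.95 for Cx3cr1, -1.19 and -0.55 for Cxcl16, and -2.33 and -1.64 for Cxcr4.

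**Figure D4:**
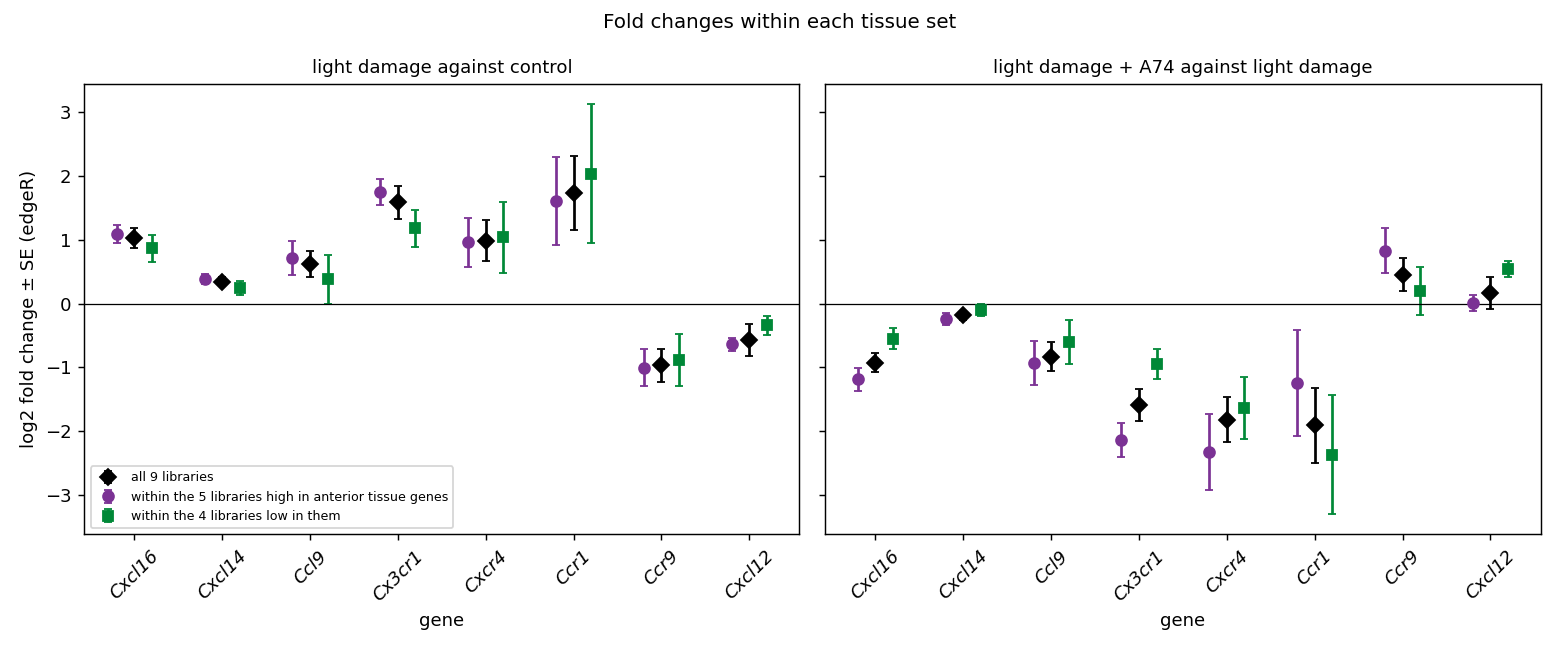
Log2 fold change with its SE (vertical axis) of 8 genes (horizontal axis) over all 9 libraries (black), within the 5 libraries high in anterior tissue genes (purple) and within the 4 low in them (green), for light damage against control (left) and A74 against light damage (right). Cx3cr1 is 1.75 and 1.18 in the left panel and -2.14 and -0.95 in the right one; Cxcl10 and Ccl12 are left out because of their wide errors.

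With Y-linked transcripts as a term, 2.36% of all genes were called lower with A74 than with light damage, and 4 of the 8 genes lower with A74 stayed called, namely Cxcl16 (log2 fold change -0.68, edgeR adjusted p = 0.0193), Ccl12 (-4.68, 0.0281), Cxcr4 (-1.83, 0.0233) and Cx3cr1 (-1.28, 0.0256). That fit rests on light damage replicate 3, the only light damage library without Y-linked counts. The 9 genes higher after light damage all stayed called in it.

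Of 10 microglia markers, a list without Cx3cr1, 6 rose after light damage (13% of all genes), and A74 left 7 below the level with light alone (9.19% of all genes). Their median log2 fold changes were 1.12 and -1.16, beside 0.008 and 0 over all genes tested. Their summed level was 51.6 to 62.4 CPM in control, 116 to 169 after light damage and 54.6 to 69.3 with A74. Of 8 monocyte markers 2 were tested, and Fn1, a matrix gene that other cells make too, rose by 0.38 and was at -0.38 with A74, while Ly6c2 had at most 4 counts and Chil3 and Plac8 at most 1. The monocyte and macrophage marker F13a1, singled out once its counts were known, had 2 to 5 counts in control, 26, 38 and 1 after light damage and 0 to 2 with A74. The monocyte marker Ms4a4c, singled out in the same way, had 0, 1 and 0 counts in control, 9, 11 and 2 after light damage and 1, 1 and 0 with A74.

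Of 10 markers of Müller glia, the radial glia of the retina, 9 rose after light damage and 9 were lower with A74 (13% and 9.19% of all genes), with median log2 fold changes of 0.56 and -0.69, among them the glutamate transporter Slc1a3 (0.64 and -0.69) and the retinoid carrier Rlbp1 (0.48 and -0.43). Of 10 rod markers, 7 fell after light damage (12.8% of all genes). With A74, 8 were higher than with light damage alone (9.07% of all genes). The medians were -0.53 and 0.44. The part of any of these cells in the chemokine values was not tested.

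Markers of other leukocytes that these ligands attract had few counts. Of 8 neutrophil markers 1 was tested, Csf3r, which rose after light damage and was lower with A74, while Ly6g and Retnlg were at 0 in all libraries and S100a8 had at most 1 count. Summed neutrophil markers were 0.845 to 1.34 CPM in control, 2.82 to 4.57 after light damage and 1.33 to 2.63 with A74, and Csf3r alone gave 11 to 13, 42 to 69 and 17 to 39 of the counts behind them, the other 7 genes together at most 10 in a library. T cell markers summed to 0.989 to 1.63, 1.18 to 2.59 and 0.893 to 1.93 CPM in the same order, with Cd3e at 0. NK cell markers summed to at most 0.0674 CPM in any library, with 4 of 6 at 0. B cell markers summed to at most 1.56 CPM.

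Genes that chemokine receptors signal through were partly called. Of 27 listed genes 22 were tested, and 11 rose and 1 fell after light damage (13% and 12.8% of all genes), with a median log2 fold change of 0.42. Gnai2, the main Gi protein of leukocytes, rose by 0.63 (SE 0.07, edgeR adjusted p = 2.53e-05), Vav1, an exchange factor of blood cells, by 2.11 and Dock2, which drives leukocyte migration, by 2.34. Rgs2, which ends G protein signals, rose by 0.40. Rac2, the leukocyte Rac, rose by 3.06. Grk5, a receptor kinase named here because it alone fell, had -0.40. With A74, 11 of the 22 were lower and 1 higher than with light damage (9.19% and 9.07% of all genes), with Gnai2 at -0.67 and Rac2 at -2.46.

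Of the 15 listed inducers of chemokine transcription, 10 were tested. After light damage 6 rose and none fell, where 13% and 12.8% of all genes did, among them Relb (2.01) and Nfkbia (1.01) of the NF-kB pathway and the interferon regulator Irf1 (1.44), and with A74 5 were lower than with light damage, where 9.19% of all genes were. The median log2 fold changes were 1.03 and -0.68. Tnf had at most 6 counts in a library, Il6 at most 2, and Ifng and Ifnb1 were at 0 throughout. Nfkbia was the only listed gene of these 4 pathway lists called between A74 and control (log2 fold change 0.57, edgeR adjusted p = 0.0391).

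Adhesion genes of leukocyte recruitment rose in 6 of 9 tested cases (13% of all genes), with Vcam1 at 1.98 and Itgb2, the leukocyte integrin beta chain, at 2.44, and 5 of the 9 were lower with A74 (9.19% of all genes). The median log2 fold changes were 1.98 and -1.50. The endothelial selectins Sele and Selp had at most 1 count. Of 12 chemokine partners with other names, 9 were tested and 3 rose after light damage (13% of all genes). These were Mmp12, a macrophage protease that trims chemokines (4.50), Cmklr1, the chemerin receptor (1.75), and Mif (0.27). With A74, 2 of the 9 were lower (9.19% of all genes), Mmp12 and Mif (-4.36 and -0.22). The sheddases Adam10 and Adam17, which release Cx3cl1 and Cxcl16, had log2 fold changes of 0.01 and -0.01 after light and were not called. The platelet chemokine Pf4 had at most 4 counts and Ppbp at most 1.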

How the data were processed

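The deposited values are whole-number read counts per gene. Per the submitters' processing notes, RSEM 1.3.1, Bowtie2, DESeq2 1.4.5 and GRCm39 were used by the authors; for the role of each, the annotation, the strand setting and any rounding of RSEM estimates, nothing is stated (not given in the sources used here), so overlapping genes and near-identical copies are uncertain. No count column was left unmapped. All 9 libraries were fitted together in edgeR 4.0.16 (R 4.3.3; quasi-likelihood test, TMM, filterByExpr with a minimum count of 10, no covariate), with Benjamini-Hochberg adjustment over 17272 genes and a threshold of 0.05; the standard error is the fold change divided by the root of F. DESeq2 1.42.0, other scaling, no filter, added terms and left-out libraries were alternatives.

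Chemokine genes that passed the filter were named, except 1 that is not reported here and stays within the counts, those under it from 10 counts in a library on, and of each other list up to 4 called genes with the smallest adjusted p. The genes and lists were chosen with earlier results of these data known, and the anterior eye list was written from these data. Replicate numbers of light damage and control went with correlations of 0.116, 0.246 and 0.311 between same-numbered deviations, all above 0.1. Pairs of unlike number gave -0.289 to 0.127. In both groups replicates 1 and 2 are in the high tissue set and replicate 3 in the low one, so pairing and tissue set cannot be told apart. With A74 against light damage the same-numbered values were 0.128, -0.067 and 0.128, and the others -0.193 to 0.117. The replicate numbers come from sample titles, and library names carry others. No 2 replicates agreed within counting noise.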

Additional observations from a re-analysis of the deposited data

How the results depend on the processing

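For the 20 genes tested in the main fit, 1122 alternative values were computed over single genes. Of these, 1059 kept their direction and side of the threshold or were called in neither. Another 54 lost a call, 9 gained one and 0 reversed a call. Genes under the filter of the main fit are outside these totals, and calls they gained enter only the counts below. Brackets below give the share of all genes called in the same setting and direction. Of the chemokine genes called higher after light damage (9, with 13% of all genes), the count was 14 without the filter (7.96%). It was 14 without light damage 3 and A74 1 together (16.5%). When 1 library was left out, it ran from 6 without light damage replicate 1 (9.5%) to 14 without light damage replicate 3 (15.8%). Called lower (1, with 12.8% of all genes), it was 2 with the replicate block (13.1%). It was also 2 with Y-linked transcripts (13.9%) or tissue set (14.2%) as a term, each time by Cxcl12. With 1 library left out it was 0 without control 1 (8.11%) or light damage 2 (7.65%), and 2 without control 3 (9.45%). The replicate block changed no other call. For A74 against light damage, genes called higher (0, with 9.07% of all genes) were 1 with Y-linked transcripts as a term (1.95%), Cxcl12. Genes called lower (8, with 9.19% of all genes) were 14 without the filter (5.86%) and 4 with Y-linked transcripts as a term (2.36%). They were 7 with tissue set as a term (7.67%) and 6 by DESeq2 (8.05%). With 1 library left out they ran from 5 without light damage replicate 2 (5.37%) to 12 without light damage replicate 3 (12.4%). For A74 against control, no gene was called in either direction in these settings. The within-set fits were chosen after seeing the data. They enter the totals over single genes above, but their calls are not given. Where calls changed, the cause was not tested. Depth limits the genes under about 10 counts.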
